A study of Mus musculus with 36 samples.

Results

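Within the mouse submandibular gland, a rare group of duct cells carried transcripts of Esp4 and Esp18, and 122 such cells were found among 23346 cells of 26 glands (0.523%). Cells were taken in when they had at least 100 genes, under 15% mitochondrial UMIs (unique molecular identifiers, each standing for 1 captured mRNA), 3 or more UMIs of Esp4 plus Esp18 that made up at least 0.5% of the cell's UMIs, Smgc under 5% of UMIs, and no UMI of Krt14 or Krt5. The members were thus selected on measured values of these 5 genes, and their levels are given below as a description. The group came from 23 of the 26 glands, and 36 of its cells (29.5%) came from a single gland, control P90 replicate 5.

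All glands were from C57BL/6 mice and each gland gave 1 Drop-seq library of single live cells, sorted as DAPI-negative and fixed in methanol. Control mice (12 glands, 6 at P40 and 6 at P90, days after birth) carried the K14-Cre transgene and the R26-EYFP reporter, and double-mutant mice (14 glands, 7 at P40 and 7 at P90) carried in addition a gain-of-function allele of β-catenin and a loss-of-function allele of Bmpr1a, so that by the breeding scheme both genotypes carried Cre and reporter. In 3 libraries the reporter was all but unread outside the members, with 0 EYFP UMIs in control P40 replicate 5 and in double-mutant P90 replicate 5 and 1 in double-mutant P40 replicate 7, against 42.1 to 177.5 CPM in the 11 other control and 3.20 to 178.6 CPM in the 12 other double-mutant glands. They held 0, 2 and 5 members. The keratin 14 promoter drives Cre in basal epithelial cells, and the rule above leaves out cells with a Krt14 UMI at the time of capture. A further 4 glands (2 of each genotype, P70) were measured by CITE-seq, which reads RNA and antibody tags on the same cells, and 1 bulk library was made of each genotype, at P70 for the control and at P100 for the double-mutant. Libraries held 777537 to 7013325 UMIs. In 2 libraries, double-mutant P40 replicate 1 and double-mutant P90 replicate 5, Xist and Y-linked transcripts went against the labelled sex. These libraries held 4 and 2 members. In control glands stage and batch cannot be told apart, since P90 glands were in batches B7 to B9 and P40 glands in B12 to B14.

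Submandibular ducts carry saliva from the acini, which make the primary fluid, through intercalated ducts rich in Smgc and on to striated and granular ducts, which change its salt content and add kallikreins and growth factors. The exocrine gland-secreting peptides (Esp genes) form a rodent family of small secreted proteins, the best known of which act as pheromones through the vomeronasal organ. Esp4 and Esp18 are 2 of its members and lie on chromosome 17, Esp18 at chr17:39406359-39410992 and Esp4 at chr17:40598594-40602618, both on the plus strand (mm10, annotation of the deposited bulk table). To see whether reads of the gene pair could be confused, their transcripts in the GENCODE vM21 set were compared. The longest run of bases common to the Esp4 transcript (553 bases) and the Esp18 transcript (1257 bases) was 12 bases long, positions 219 to 230 of Esp4 and 189 to 200 of Esp18, and is shown here with all shared letters in capitals:

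Esp4 and Esp18 shared run: CTGAAGGAAGGG

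The summed members held 6605 CPM of Esp18 (counts-per-million units, a gene's UMIs relative to all UMIs of the summed cells) and 1549 CPM of Esp4. Of the 122 cells, 48 (39.3%) had UMIs of both, 62 (50.8%) of Esp18 alone and 12 (9.84%) of Esp4 alone, so Esp18 was the gene that brought most cells in. The pair made up 0.502% to 1.97% of a member's UMIs with a median of 0.745%. The limit cut through a continuous range. The 3 cells just inside it had 0.502%, 0.502% and 0.503%, the 3 just outside had 0.496%, 0.490% and 0.485%, and 38 members (31.1%) were under 0.6%. Members had a median of 918 UMIs (348 to 3767) and 573 genes, against 1534 UMIs in all other cells. No other gene of the Esp family had more than 1 UMI in the members, Esp8 and Esp15 included.

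The label of duct cells was given with the group, and marker genes were read beside it. Epcam, Krt8 or Krt18, genes of simple epithelium, had a UMI in 117 of 122 members (95.9%). They do not tell duct from acinar cells, since Krt18 alone had a UMI in 87.7% of members and 63.1% of cells with acinar markers. Of the genes given as markers of the group, Hp (haptoglobin, which binds free haemoglobin) had a UMI in 43.4% of members and stood at 1208 CPM (exact Poisson interval 1031 to 1406), against 18.96 CPM in all other cells. Edn1 (endothelin-1, a peptide best known for narrowing blood vessels) was found in 28.7% of members at 880.2 CPM against 41.9 CPM. Car2 (cytosolic carbonic anhydrase, which makes bicarbonate from carbon dioxide) was found in 42.6% at 1048 CPM against 24.0 CPM. Intervals here and below cover counting error only. Hp, Edn1 and Car2 were given as markers with earlier results of these data known, so their height is not independent evidence.

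The markers of most cell types outside the ducts were low in the summed members, but some reached higher levels in single glands. Lists of other duct cells were not all low. The intercalated duct list, which includes the rule gene Smgc, summed to 8773 CPM in members and 35443 CPM in the highest gland. The striated duct list summed to 9719 CPM and the granular duct list to 2342 CPM. In all other cells these 3 lists summed to 85885, 14252 and 12595 CPM. Of 4 intercalated duct genes tested, Dcpp1 was higher than in Ascl3/Foxi1 duct cells, beside 5.08% over all genes. The endothelial list summed to 21.8 CPM, with Pecam1, Cdh5, Kdr and Egfl7 at 0, the lymphocyte list to 36.4 CPM, with 5 of 7 genes at 0, and the macrophage list to 218.2 CPM with C1qb, C1qc and Ptprc at 0. The fibroblast list summed to 123.7 CPM with Col1a1, Col3a1, Lum and Pdgfra at 0, but reached 1062 CPM in 1 gland. The myoepithelial list summed to 247.3 CPM in members, 43.5 CPM in Klk1 duct cells and 105.3 CPM in all other cells, with Cnn1 and Oxtr at 0, a median of 0 CPM over 7 glands and 1943 CPM in the highest. Its most abundant gene, Acta2, had a UMI in 1.64% of members. The mucous list summed to 167.3 CPM, all from Muc19, with 0 CPM in members of control and 440.9 CPM in members of double-mutant glands, and reached 1699 CPM in 1 gland. The part of these cells' RNA in the results below was not tested. Of 9 acinar markers, Bhlha15, Smr3a, Lpo and Prb1 were at 0, while the abundant secretory genes Prol1 (3921 CPM) and Pip (3710 CPM) were present, as they were in each population compared. Spt1, an abundant salivary secretory gene, had a UMI in 100% of members and 99.5% of all cells, at 20754 CPM in members and 314032 CPM in cells with acinar markers. The genes of the group were also read in these acinar-marker cells, but free RNA itself was not measured. Among 4896 cells with 2 or more UMIs of the acinar markers Bhlha15, Aqp5 and Lpo, with a median of 6857 UMIs, 215 (4.39%) had any Esp4 or Esp18 UMI, and 1.29% had a Hp UMI. Over all 23346 cells these shares were 5.69% and 3.38%. Esp18 stood at 1.38 CPM in the acinar-marker cells and 23.3 CPM in all cells but the members. Esp4 stood at 4.86 and 12.5 CPM. In the acinar-marker cells Esp4 was thus the more frequent of the pair, with a UMI in 3.41% against 1.06% for Esp18.

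The marker genes were spread unevenly over the members. Of Hp, Edn1 and Car2, 41 members (33.6%) had none, 33 had 1, 37 had 2 and 11 (9.02%) had all 3, at these shallow depths. Hp was seen in 32 of 52 members with Car2 (61.5%) and in 21 of 70 without it (30.0%). Edn1 was seen in 42.3% of members with Car2 and in 18.6% without it. Hp was about as frequent in members with Edn1 (45.7%) as in those without (42.5%). These are shares of cells pooled over glands, deeper cells show more genes, and no test was made. Cyp2f2, a cytochrome P450 enzyme, was found in 76.2% of members at 2946 CPM, Krt18 in 87.7% at 5412 CPM, Anxa1 (annexin A1) in 60.7% at 1826 CPM, and Klk1, the main kallikrein of striated ducts, in 46.7% at 8518 CPM. In Klk1 duct cells Cyp2f2 had a UMI in 76.9% (1584 CPM), Krt18 in 80.1% (2240 CPM) and Anxa1 in 37.0% (543.9 CPM). In Ascl3/Foxi1 duct cells these shares were 34.7%, 79.6% and 76%, with Anxa1 at 1492 CPM.

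Cells beyond the 0.5% limit carried the same genes at lower levels. Of 396 cells with 3 or more Esp4 plus Esp18 UMIs, 122 met the whole rule, 190 had 0.1% to 0.5% and met the other limits, 13 failed on a Krt14 or Krt5 UMI and none failed on Smgc alone (0 of 396, which allows up to 0.927% by the exact interval). Hp stood at 389.5 CPM in the 85 cells with 0.3 to 0.5%, 478.2 CPM in the 65 cells with 0.2 to 0.3%, 297.7 CPM in the 40 cells with 0.1 to 0.2% and 14.4 CPM in the 22017 cells without an Esp UMI. Car2 went from 654.3 over 557.9 to 355.3 CPM over the same 3 bins, and was 18.2 CPM in cells without an Esp UMI. Edn1 was nearly level at 537.5, 541.9 and 489.8 CPM, against 35.1 CPM. Klk1 ran the other way, with 22068, 27910 and 50562 CPM against 8518 CPM in the members. The median depth of the bins was 1217, 1778 and 2266.5 UMIs, higher than in the members, and the part of depth and of Klk1 in what share of a cell's UMIs Esp can take was not tested.

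**Figure D1:**
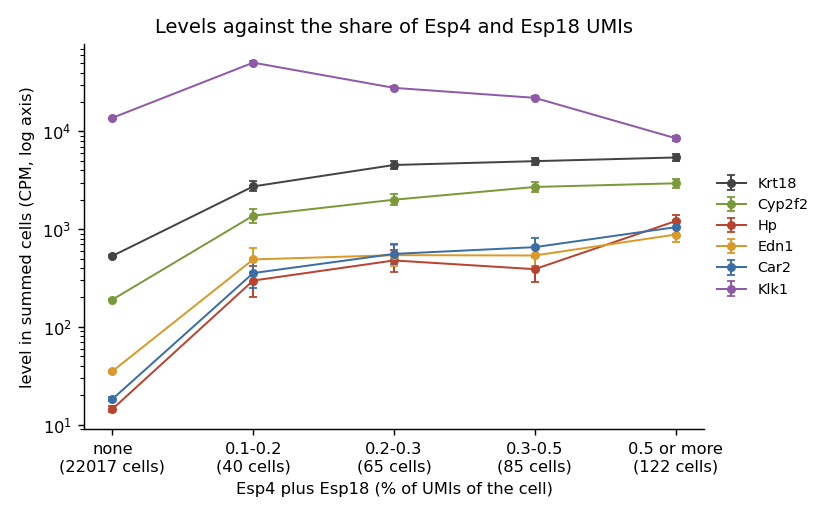
Level in summed cells (CPM, log axis) of Krt18, Cyp2f2, Hp, Edn1, Car2 and Klk1 against the share of Esp4 plus Esp18 in a cell's UMIs, for cells with no Esp UMI and for cells with 3 or more; bars are 95% Poisson intervals. Hp, Edn1 and Car2 lie between 298 and 654 CPM in the 3 bins below the 0.5% limit, and Klk1 falls from 50562 CPM at 0.1 to 0.2% to 8518 CPM in the members.

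The first question of the design was whether the group was as frequent in double-mutant as in control glands. No difference passed the test. In control P40 glands, the lowest share of members was 0%, the median 0.223% and the highest 1.59%. In control P90 glands these values were 0.101%, 0.266% and 4.79%. In double-mutant P40 glands they were 0%, 0.299% and 0.727%, and in double-mutant P90 glands 0%, 0.272% and 1.03%. The groups overlapped throughout and the medians were close, while control P90 replicate 5 stood alone with 36 of 751 cells (4.79%, exact interval 3.38 to 6.57%). The 3 glands with no member held 713, 950 and 856 cells. By the exact interval these allow shares of up to 0.516%, 0.388% and 0.430%.

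Control glands had 0.778% ± 1.35 (SD, n = 12) and double-mutant glands 0.368% ± 0.294 (SD, n = 14), a difference of -0.41 percentage points (two-sided permutation test, p = 0.326, adjusted p = 0.926 over 7 share tests). Without control P90 replicate 5 the difference was -0.0453 points, and without the 3 libraries whose reporter was all but unread -0.483 points (permutation test, p = 0.280). Within P40 it was -0.112 points (exact permutation test, p = 0.735) and within P90 -0.709 points (exact permutation test, p = 0.442). Inside batches that held both genotypes the double-mutant glands were lower in B12 (-0.683 points) and B9 (-2.52 points) and higher in B8 (0.316 points), B13 (0.348 points) and B14 (0.349 points), and B6, B7 and B11 held 1 genotype each. Males had 1.15% ± 1.88 and females 0.404% ± 0.356 in controls (n = 6 each, exact permutation test, p = 0.487). In double-mutants, males had 0.372% ± 0.280 (n = 6) and females 0.364% ± 0.323 (n = 8, exact permutation test, p = 0.967). The difference between P90 and P40 was 0.642 points in controls (exact permutation test, p = 0.613) and 0.0447 points in double-mutants (exact permutation test, p = 0.794). All 7 adjusted p-values lay between 0.926 and 0.967. The genotype difference was not shown to depend on stage (permutation test of the interaction, p = 0.595) or sex (p = 0.486, permutation). With each cell thinned to 600 UMIs, shares were 0.848% ± 1.23 in controls and 0.609% ± 0.458 in double-mutants, over 19404 cells deep enough. The 656 control and 3286 double-mutant cells under that depth were left out.

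**Figure D2:**
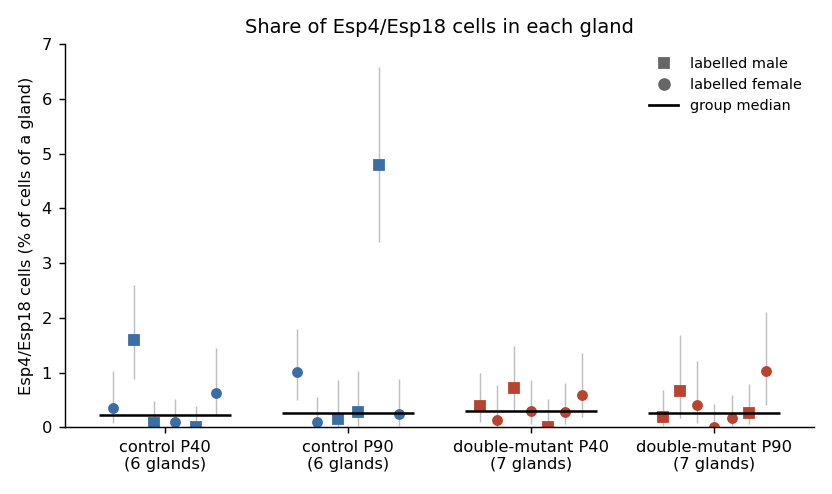
Share of Esp4/Esp18 cells among the cells of each of the 26 Drop-seq glands (percent), by genotype and stage, with exact 95% binomial intervals; squares are glands labelled male, circles labelled female, and the line is the group median. Medians lie between 0.223% and 0.299%, and 1 gland, control P90 replicate 5, stands at 4.79%.

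The group was then set against the most similar duct cells of the same glands. Klk1 duct cells (2289 cells) had 3 or more Klk1 UMIs at 1% or more of UMIs and no Egf UMI, Ascl3/Foxi1 duct cells (525) had 2 or more UMIs of these transcription factors, which mark ion-transporting duct cells, and Smgc-high duct cells (780) had 5% or more Smgc. UMIs were summed per gland and tested with edgeR's quasi-likelihood test with gland as block and Benjamini-Hochberg adjustment over all genes tested. Genes that chose the cells on either side were left out. Of the members, 11 also met the Klk1 rule and 3 the Ascl3/Foxi1 rule, and these cells stayed with the members. The comparisons share their members and are not independent of each other.

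Against Klk1 duct cells, the members were higher in Hp, Car2, Gjb2, Wfdc18, Bpifa2, Ano1, Rgs2, Wbp11 and Edn1 and lower in kallikreins of the Klk1b family, Duoxa2 and Fxyd2. In the 3 control glands with at least 10 cells of each kind (P90 replicates 1 and 5, P40 replicate 2), 13 of 646 genes were higher (2.01%) and 19 lower (2.94%). In the 7 glands with at least 5 of each, 51 of 1007 were higher (5.06%) and 156 lower (15.5%). Of the 13 and 19 genes, 10 and 19 were called again there, but the glands overlap. Without double-mutant P40 replicate 7, whose reporter was all but unread, 50 of 907 were higher and 133 lower.

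Hp levels in members were 589 CPM in control P40 replicate 2, 328.4 CPM in control P40 replicate 6, 2950 CPM in control P90 replicate 1, 1288 CPM in control P90 replicate 5, 1846 and 1494 CPM in double-mutant P40 replicates 3 and 7, and 1607 CPM in double-mutant P90 replicate 7. Klk1 duct cells of the same glands held 0 to 118.5 CPM, so the populations did not overlap. The log2 difference was 6.34 ± 0.62 (SE, 3 glands, adjusted p = 0.000637, edgeR) and 4.60 over 7 glands. Car2 levels were 1178, 547.4, 1180, 1460, 1034, 497.8 and 419.3 CPM in the same order of glands, against 0 to 163.3 CPM in Klk1 duct cells, again without overlap. Its log2 difference was 4.33 ± 0.72 (SE, adjusted p = 0.0065, edgeR). Edn1 levels were 1884, 547.4, 118.0, 772.8, 2068, 497.8 and 908.4 CPM in that order, against 51.5 to 143.5 CPM. Edn1 was higher in the members of all 7 glands, but control P90 replicate 1, with 118.0 CPM from 1 UMI, lay inside the range of the Klk1 duct cells. Its log2 difference was 2.79 (adjusted p = 0.0174, edgeR). In double-mutant P40 replicate 7 the UMIs of Hp (9), Car2 (3), Edn1 (3) and Gjb2 (3) each came from 1 of its 5 members (20%).

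Gjb2, which encodes the gap junction protein connexin 26, and Ano1, a calcium-activated chloride channel, were not among the genes given as markers. Gjb2 levels were 219.0 to 960.1 CPM in members and 5.7 to 36.9 CPM in Klk1 duct cells over the 7 glands, and its log2 difference was 4.08 ± 0.60 (SE, adjusted p = 0.00378, edgeR). Ano1 levels were 165.9 to 419.3 CPM against 5.1 to 69.6 CPM, with a log2 difference of 3.40 ± 0.77 (SE, adjusted p = 0.0305, edgeR). Neither gene's ranges overlapped. Rgs2, a regulator of G-protein signalling, had a log2 difference of 3.09 in the 3 glands, but no UMI in the members of 3 of the 7 glands. Wbp11, which acts in splicing, had 2.92, and ranges that overlapped over the 7 glands. Bpifa2, a secretory protein of the parotid, had 3.66 in the 3 glands, but was higher in members in 3 of 7 glands (0 to 2414 CPM against 0 to 2567 CPM), and its difference turned to -0.57 when the limit was set at 0.1%.

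Wfdc18, a small protein with a WAP domain, was the most abundant of these genes. In control tissue the paper found it to be specific to intercalated and excretory ducts. It is also counted among markers of the luminal tumour cells of this model. Its levels in members were 12717 CPM in control P40 replicate 2, 13466 CPM in control P40 replicate 6, 5899 CPM in control P90 replicate 1, 29482 CPM in control P90 replicate 5, 36854 and 34185 CPM in double-mutant P40 replicates 3 and 7, and 28999 CPM in double-mutant P90 replicate 7. Klk1 duct cells of these glands had 228.0 to 1928 CPM, without overlap, while all other cells of the 26 glands summed to 6945 CPM. In all other cells of these 7 glands it ran from 296 CPM (control P90 replicate 1) to 16853 CPM (double-mutant P40 replicate 7). That range overlapped the members. The log2 difference was 3.87 ± 0.59 (SE, adjusted p = 0.00398, edgeR), and members of control glands carried it too. Of the other genes of that tumour list, Clu stood at 334.6 CPM and was higher than in Ascl3/Foxi1 duct cells in 7 glands (1.63, adjusted p = 0.0466, edgeR), with Ltf and Spp1 at 21.8 CPM each. Wfdc2, a related antimicrobial WAP protein, stood at 487.4 CPM against 1076 CPM in Klk1 duct cells, with a log2 difference of -2.23 (adjusted p = 0.0205, edgeR).

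Of the genes lower in members, Duoxa2, which matures the hydrogen peroxide-producing dual oxidases, had no UMI in the members of any of the 7 glands and 158.0 to 1624 CPM in the Klk1 duct cells, at least 8.26-fold lower against a floor of 3 counts over the 3 glands. The other 7 of the 8 largest falls were Klk1b24, Klk1b5, Klk1b3, Klk1b16, Klk1b22, Klk1b4 and Klk1b21, with log2 differences of -4.96 to -3.70. These kallikreins are near copies of Klk1, which chose the comparison cells, and the counting could split their reads, so their differences are uncertain. Fxyd2, a regulatory subunit of the sodium pump, had a log2 difference of -3.40.

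The 32 calls (4.95% of genes tested) rested on control P90 replicate 5, which gave 36 of the 62 members of these 3 glands. Without it none of 1012 genes passed by edgeR, while 136 had an unadjusted p under 0.05. The log2 differences then were 6.03 for Hp, 4.25 for Car2, 3.92 for Gjb2 and 3.30 for Wfdc18, with adjusted p of 0.232, 0.328, 0.232 and 0.232 (edgeR, 2 glands). Without control P90 replicate 1, 71 genes were called. With size factors from relative log expression, 14 were higher and 37 lower, and DESeq2 gave 21 and 54.

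**Figure D3:**
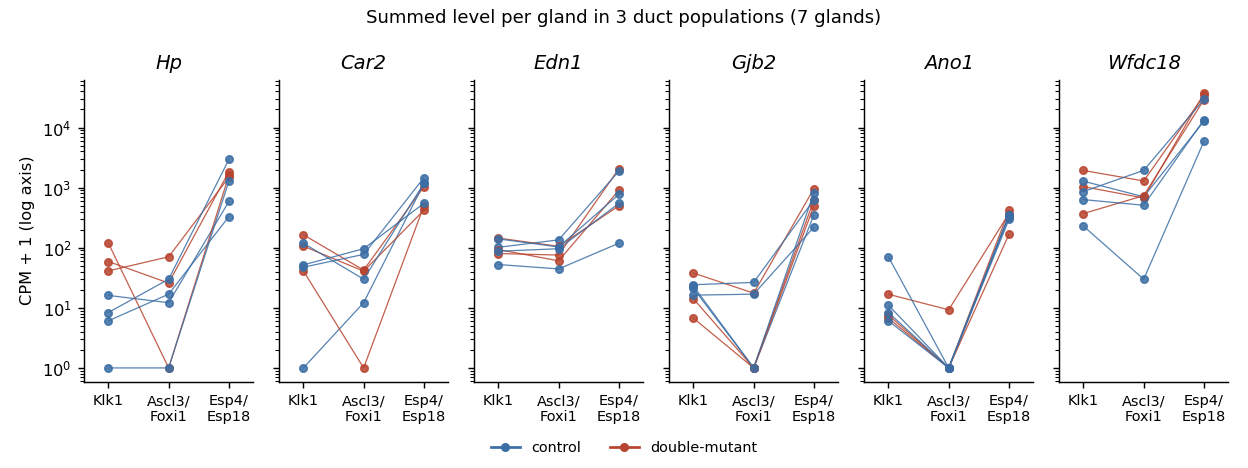
Level of 6 genes (CPM + 1, log axis) in Klk1 duct cells, Ascl3/Foxi1 duct cells and Esp4/Esp18 cells of the 7 glands with at least 5 members; each line joins the populations of 1 gland, in blue for control and red for double-mutant. Hp, Car2, Gjb2, Ano1 and Wfdc18 are higher in the Esp4/Esp18 cells of all 7 glands with no overlap, while Edn1 overlaps in 1 control gland at 118.0 CPM.

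Against Ascl3/Foxi1 duct cells of the same 3 control glands, 36 of 708 genes were higher (5.08%) and 68 lower (9.6%), and in 7 glands 60 of 910 were higher (6.59%) and 148 lower (16.3%). The largest differences were again those of Ano1, which had no UMI in the comparison cells of the 3 glands and was at least 21.8-fold higher in members, Hp (log2 difference 6.19 ± 0.60, SE, adjusted p = 1.39e-09, edgeR), Gjb2 (5.91), Car2 (4.99) and Wfdc18 (4.59). Edn1 had 3.09 (adjusted p = 3.22e-05, edgeR). Ccnd1 (cyclin D1) had 4.37, with 69.9 to 353.9 CPM in members of the 7 glands against 0 to 31.7 CPM. Cdo1, which breaks down cysteine, had 4.33 but no UMI in the members of 1 gland. Krt18 (1.42) and Krt8 (1.116) rose as a pair, and Cyp2f2 had 2.56. Cyp2f2 did not pass against Klk1 duct cells (0.48 in 3 glands, 0.05 in 7) or Smgc-high cells (0.75). Of the markers of Ascl3/Foxi1 duct cells other than the genes that chose them, all 4 tested were lower in members (Atp6v0d2, Foxi2, Hepacam2 and Stap1), and of 6 genes of ion and water transport 2 were higher (Ano1, Fxyd3) and 2 lower (Fxyd2, Slc12a2). Among the largest falls, Nrip3 and Hepacam2 had no UMI in the members of these 3 glands, at least 10.98-fold and 12.2-fold lower, the proton pump subunits Atp6v1g3 and Atp6v0d2 had -4.73 and -4.39, the adaptor Stap1 -4.08, and renin (Ren1) -4.18, beside the kallikreins Klk1b16 (-4.29) and Klk1b27 (-4.12). Klk1 itself, which did not choose these cells, was lower (-2.09). Without control P90 replicate 5, 43 genes were called. Bpifa2 (3.66) changed sign at the 0.1% limit (-0.31).

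Smgc-high cells reached 10 in 1 gland with 10 members, so that comparison was made in the 3 glands with at least 5 of each (control P90 replicate 1, control P40 replicate 6 and double-mutant P40 replicate 7, all female). There 24 of 412 genes were higher (5.83%) and 37 lower (8.98%). Krt7, a keratin of simple ducts, stood at 471.9, 437.9 and 497.8 CPM in members against 29.1, 0 and 12.7 CPM, with a log2 difference of 3.96 (adjusted p = 0.017, edgeR). Ly6d, an epithelial surface protein, had 5.76, the growth factor Ptn 5.46, the homeobox factor Meis2 4.26, the copper carrier Cp 3.89, the transcription factor Sox4 3.50 and Tmsb10 3.45. Ptn levels were 1534, 875.8 and 497.8 CPM in the members of these 3 glands and 0 in those of the other 4 of the 7 glands. Dcn, a matrix proteoglycan of fibroblasts, had 4.64 and stood at 1062, 437.9 and 331.9 CPM in these 3 glands, at 58.9 CPM (1 UMI) in control P40 replicate 2 and at 0 in the other 3. The part of other cells' RNA in these values was not tested. Car2 (3.15) and Wfdc18 (2.08) were higher here too, but Car2 did not pass without double-mutant P40 replicate 7 (3.26) or without control P90 replicate 1 (1.81). Hp had 1.93 (adjusted p = 0.0668, edgeR) and Edn1 -0.31 (adjusted p = 0.813, edgeR), neither past the threshold. Smgc-high cells themselves held 164.8 to 543.0 CPM of Hp and 120.1 to 475.1 CPM of Edn1, above the Klk1 duct cells in the same glands.

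Of the acinar markers, 4 of 5 tested were lower than in Smgc-high cells (Aqp5, Cldn10, Pip and Prol1), beside 8.98% lower over all genes, and of the genes of protein secretion 1 of 5. The antimicrobial Wfdc12 had no UMI in the members of these 3 glands and was at least 18.2-fold lower. BC048546, Tspan13 and the water channel Aqp5 also had none, with falls of at least 3.90-fold, 2.87-fold and 4.06-fold. Pip had -5.56, the calcium pump Atp2a3 -3.83, the membrane protein Serp1 of the endoplasmic reticulum -3.71 and the long non-coding RNA Neat1 -3.67. Without double-mutant P40 replicate 7, 12 genes were called in place of 61.

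The gene lists gave few members that passed. Over all genes, 2.01% were called higher and 2.94% lower against Klk1 duct cells, 5.08% and 9.6% against Ascl3/Foxi1 duct cells, and 5.83% and 8.98% against Smgc-high cells. Of 22 acute phase and antimicrobial genes, 14 had no UMI in the members, among them Saa1, Saa3, C3 and Slpi. Of the 3 tested against Klk1 duct cells, Hp was higher, Wfdc2 lower and Nupr1 did not pass. Of 9 genes of the endothelin system, Edn3 and both receptors Ednra and Ednrb had no UMI, and of 2 tested Edn1 was higher. Of 14 carbonic anhydrases, 13 were in the tables and 8 had no UMI. Car2 (1048 CPM) was higher against Klk1 duct cells and Car6, the secreted salivary form, stood at 2037 CPM and did not pass against them in 3 glands, but was lower in 7 glands and against Ascl3/Foxi1 and Smgc-high cells. Of 29 genes of ion and water transport, 6 were tested against Klk1 duct cells, with 1 higher (Ano1) and 2 lower, Fxyd2 among them, and a median log2 difference of -0.07 beside 0.10 over all genes tested. Of 16 genes of luminal keratins and junctions, none of 6 passed against Klk1 duct cells, Krt8 and Krt18 were higher against Ascl3/Foxi1 cells and Krt7 higher and Cldn10 lower against Smgc-high cells.

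Genes of the immediate early response were abundant. The list summed to 43924 CPM in members, 21183 CPM in Klk1 duct cells, 25544 CPM in Ascl3/Foxi1 duct cells, 23067 CPM in Smgc-high cells and 8009 CPM in all other cells. Of 16 tested against Klk1 duct cells, Egr1 was higher and 15 did not pass (median 0.56 beside 0.10 over all genes), and 5 of 16 were higher in 7 glands, beside 5.06% over all genes there. Against Smgc-high cells 3 of 15 were higher (Fosb, Ier3 and Klf6), beside 5.83% over all genes, while the list's median of -0.30 lay below the -0.11 of all genes. These genes rise in dissociated tissue, and the part of dissociation was not tested. Of 14 Wnt feedback and target genes, Lgr5, Nkd1, Dkk4, Lef1 and Apcdd1 had no UMI in the members, the list summed to 469.0 CPM in members of control and 479.2 CPM in members of double-mutant glands, and Ccnd1 was the sole member tested, higher than in Klk1 duct cells in 7 glands (2.44) and not past the threshold in 3 glands (2.403). Of 15 BMP response genes, Id3 was lower against Ascl3/Foxi1 cells. Of 15 genes of protein secretion, none passed against Klk1 or Ascl3/Foxi1 cells in 3 glands, Hspa5 and Hsp90b1 were lower against both in 7 glands (beside 15.5% and 16.3% lower over all genes), and Sec61b was lower against Smgc-high cells. Of 16 antigen presentation and interferon genes, B2m was higher against Smgc-high cells and none passed against Klk1 or Ascl3/Foxi1 cells.

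The lineage reporter was read in the same cells. EYFP had a UMI in 21 of 122 members (17.2%, exact interval 10.98 to 25.1%) and in 11.5% of the deeper other cells, at 203.7 CPM in members and 49.4 CPM in other cells. The duct cells compared lay between, with 14.7% of Ascl3/Foxi1 (97.5 CPM) and 14.2% of Smgc-high cells (125.5 CPM), or lower, with 8.87% of Klk1 duct cells (63.6 CPM). Against Klk1 duct cells in 7 glands EYFP did not pass (log2 difference 0.55, edgeR). EYFP was seen in 20.5% of members of control and 11.4% of members of double-mutant glands, but the reporter also varied among glands in other cells, down to 1 UMI in 845 other cells of double-mutant P40 replicate 7, and no test by genotype was made. Cells with acinar markers, which were deeper, showed it in 20.7%. Cre had a UMI in 2 members.

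Within the group, members of the 7 glands with at least 5 of them (4 control, 3 double-mutant, 3 male, 4 female, 4 at P40 and 3 at P90) were compared by genotype, sex and stage in 1 edgeR fit with 3 residual degrees of freedom. The rule of 10 members fixed at first left 3 control glands, which cannot give these comparisons. Of 259 genes tested, 1 was higher in double-mutants (0.386%) and none lower, with 13 at an unadjusted p under 0.05 and 2 called by DESeq2. It was Ifi27l2a, a small interferon-inducible protein. Its levels were 2142, 2323 and 2306 CPM in the members of double-mutant P40 replicates 3 and 7 and P90 replicate 7, and 353.3, 109.5, 236.0 and 543.8 CPM in those of control P40 replicates 2 and 6 and P90 replicates 1 and 5. The genotypes did not overlap, and the log2 difference was 2.96 ± 0.45 (SE, adjusted p = 0.0285, edgeR). In all other cells of the same glands Ifi27l2a stood at 690.7, 408.4 and 510.7 CPM in double-mutants and 374.7, 227.9, 585.9 and 331.7 CPM in controls, where the ranges overlapped. The difference stayed positive but did not pass without control P40 replicate 6 (2.58), without control P90 replicate 1 (2.83) or without double-mutant P90 replicate 7 (3.09), and was 1.36 at the 0.1% limit (adjusted p = 0.439, edgeR, 12 glands). It passed without double-mutant P40 replicate 7 (2.88), whose reporter was all but unread. It did not pass with the log2 number of members as a covariate (4.01, adjusted p = 0.161, edgeR), which ran from 5 to 7 members a gland in double-mutants and from 5 to 36 in controls.

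Genes that mark the group did not pass the test for genotype. Hp had a log2 difference of 0.81 ± 0.60, Edn1 0.78 ± 0.51, Gjb2 0.76 ± 0.61 and Car2 -0.55 ± 0.43 (SE, adjusted p = 0.913 each, edgeR). With these errors, changes of the size of the differences themselves were not detectable. Wfdc18 (1.4 ± 0.47, adjusted p = 0.525, edgeR) and Krt7 (1.68 ± 0.45, adjusted p = 0.410) leaned towards double-mutants and Klk1 (-1.96 ± 0.52, adjusted p = 0.410) towards controls without passing.

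Sex gave the most calls. All 5 genes called (1.93% of 259) were higher in members of males and none was higher in females: Klk1b26, Crisp3, Klk1b11, Wfdc12 and Klk1. With the log2 number of members as a covariate none of the 5 passed, and at the 0.1% limit the only 2 calls were of genes higher in females. Klk1 stood at 10783, 22255 and 14140 CPM in members of the males (double-mutant P40 replicate 3, control P40 replicate 2, control P90 replicate 5) and at 349.4, 331.9, 4598 and 1298 CPM in those of the females (double-mutant P90 replicate 7, double-mutant P40 replicate 7, control P40 replicate 6, control P90 replicate 1). The levels of the sexes did not overlap, and the log2 difference was 3.31 ± 0.49 (SE, adjusted p = 0.00741, edgeR). The share of members with a Klk1 UMI did overlap. In the same order of glands it was 57.1%, 66.7% and 36.1% in males and 57.1%, 40%, 100% and 54.5% in females. Klk1b26 levels were 1477, 4533 and 3349 CPM in males, and no UMI was found in females. Crisp3, a cysteine-rich secretory protein, had a log2 difference of 6.17 ± 0.72 (SE, adjusted p = 0.00195, edgeR), Klk1b11 5.35 ± 0.62 and Wfdc12 4.41 ± 0.75. All other cells of the same glands were higher in males for Klk1b26 (6112 to 19640 CPM against 54.0 to 1862 CPM), Klk1b11, Crisp3 and Wfdc12, so those differences were not confined to the members, and free RNA of these genes was not separated from their own. Klk1 was different: in all other cells it was 6084 to 16039 CPM in males and 9501 to 24710 CPM in females, and in Klk1 duct cells 130273 to 163093 CPM and 143115 to 217869 CPM. Whether the sex difference in members differs from that in other cells was not tested. Without control P40 replicate 6, Klk1 alone was called. The differences shrank where more glands entered. In the 14 glands with at least 3 members, a choice made after seeing the data, none of 76 genes passed by edgeR, with 3 at an unadjusted p under 0.05, and Klk1 had 1.19. In the 13 of them whose sex genes went with the label Klk1 had 1.79, and at the 0.1% limit (12 glands) it had 0.69 (adjusted p = 0.735, edgeR). Neither sex was higher in Hp (-0.01 ± 0.64), Car2 (0.90 ± 0.41, adjusted p = 0.527) or Edn1 (1.48 ± 0.53, adjusted p = 0.344, edgeR) by the test.

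By stage none of the 259 genes passed in edgeR, with 12 at an unadjusted p under 0.05, and DESeq2 called 2. Hp had a log2 difference of 1.2 ± 0.62 between P90 and P40 (SE, adjusted p = 0.914, edgeR), Edn1 -0.54 ± 0.52 and Car2 0.37 ± 0.42.

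**Figure D4:**
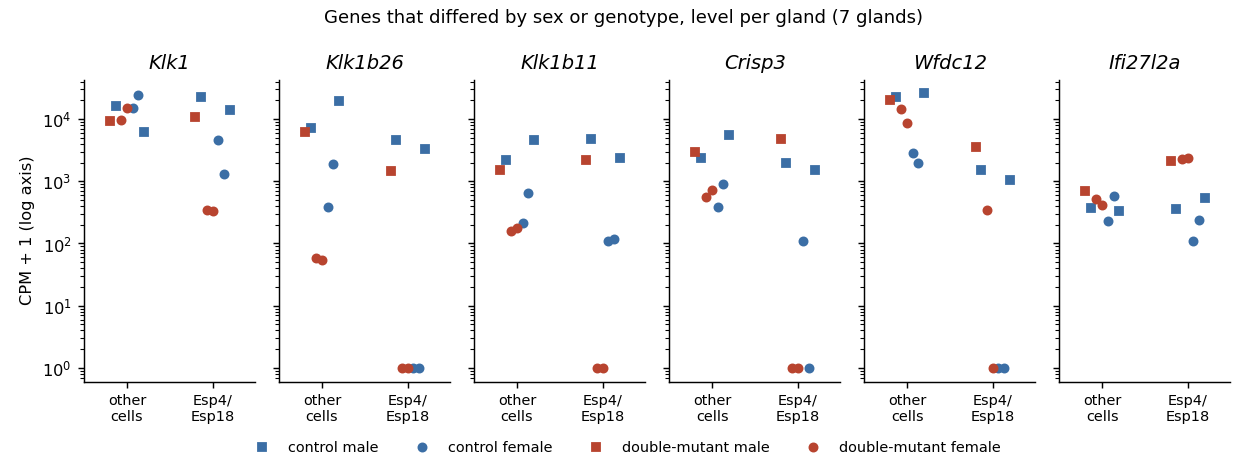
Level of 6 genes (CPM + 1, log axis) in Esp4/Esp18 cells and in all other cells of the 7 glands with at least 5 members; squares are male and circles female glands, blue control and red double-mutant. Klk1 and the other 4 sex genes are higher in male than female Esp4/Esp18 cells, and Ifi27l2a stands at 2142 to 2323 CPM in the 3 double-mutant glands and at 109.5 to 543.8 CPM in the 4 control glands.

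The 4 CITE-seq glands were not used by the rule and served as a second look. With the same limits and fewer than 2500 genes, 7 of 672 cells (1.04%, exact interval 0.420 to 2.13%) and 8 of 728 (1.099%, 0.476 to 2.15%) were members in the control glands. In the double-mutant glands 2 of 638 (0.313%) and 0 of 497 were, the latter allowing up to 0.739% by the exact interval. Both double-mutant glands were labelled female, control replicate 1 male and control replicate 2 female, so genotype was not balanced for sex. The 2 double-mutant members were shallow (median 315 UMIs), with 2 UMIs of Hp and none of Car2, Edn1, Gjb2 or Krt18. With 2 glands a genotype an exact permutation test cannot go below p = 0.333, and no test was made. The 15 members of control glands held 574.1 CPM of Hp (8 UMIs) against 12.9 CPM in all other cells, and no Hp UMI was found in the 47 Klk1 duct cells. Hp in members was 762.3 CPM in replicate 1 and 406.7 CPM in replicate 2. Car2 had 932.8 CPM against 43.1 CPM, Gjb2 430.5 CPM against 18.8 CPM, Edn1 143.5 CPM from 2 UMIs against 15.2 CPM, Cyp2f2 4808 CPM against 123.3 CPM, Anxa1 1650 CPM against 69.0 CPM and Krt18 2655 CPM against 256.8 CPM. The 47 Klk1 duct cells held 2251 CPM of Cyp2f2, 1539 CPM of Krt18, 365.6 CPM of Anxa1 and 96.2 CPM of Edn1 (5 UMIs). They held 77.0 CPM of Car2 and no Gjb2 UMI. In replicate 2 Krt18 was 1220 CPM in members and 1274 CPM in Klk1 duct cells. Hp and Car2 were thus many times higher in members of both control glands than in all other cells, and Edn1 rested on 1 UMI in each.

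Antibody tags were read on the 17 members. Of these, 15 came from control glands, while the other cells came from glands of both genotypes. Pooled shares thus compare different mixes of genotype and gland, and only CD24 is given by gland. EpCAM, a protein of epithelial surfaces, took a median of 6.25% of a member's tags, against 0.897% in all other cells and 14.03% in Klk1 duct cells. The integrins CD29 and CD104 took 6.08% and 4.17% against 2.62% and 0.774%, and Ly6A_E (Sca-1) 1.69% against 0.443%. CD24, a surface protein used with CD29 to sort stem-like tumour cells in this model, took 3.12% in members, 1.43% in Klk1 duct cells, 1.31% in Ascl3/Foxi1 duct cells and 1.19% in all other cells. CD24 was higher in members of both control glands, 2.87% against 1.30% in replicate 1 and 4.09% against 1.38% in replicate 2. CD38 took 1.85% against 0.976%. Of the 61 antibodies and isotype controls, 41 had a higher median share in members and 18 a lower one. Of the 4 isotype controls, AH_IgG (0.886% against 0.782%), mIgG1 (0.618% against 0.530%) and mIgG2b (0.526% against 0.410%) were higher and mIgG2a (0.552% against 0.994%) lower. Tags per cell ranged widely, with a median of 804 in members and 963.5 in other cells, and no test was made on 17 cells.

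**Figure D5:**
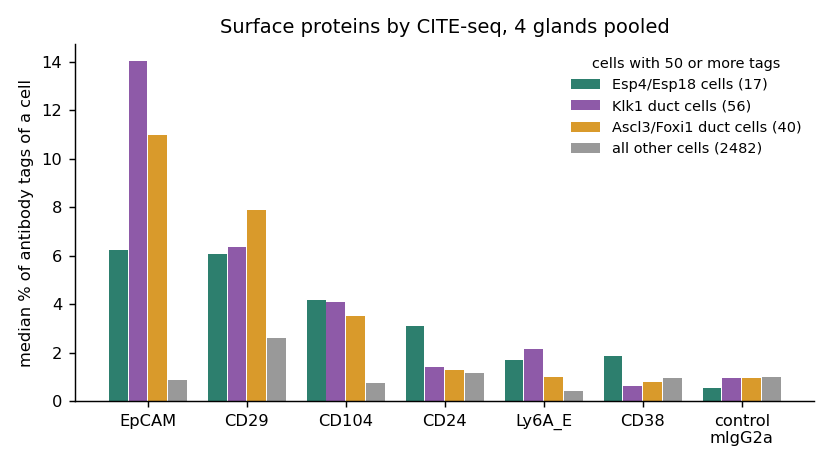
Median share of a cell's antibody tags (percent, linear axis from 0) for 6 surface proteins and 1 isotype control in Esp4/Esp18 cells, Klk1 duct cells, Ascl3/Foxi1 duct cells and all other cells of the 4 CITE-seq glands, cells with 50 or more tags. EpCAM is lower in Esp4/Esp18 cells (6.25%) than in Klk1 duct cells (14.03%), and CD24 is higher (3.12% against 1.43%).

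In the bulk libraries the genes were measurable at low levels. Per length, Esp4 stood at 12.3 TPM (counts scaled by exon length and library total) in the control and 6.35 TPM in the double-mutant library, Esp18 at 6.23 and 3.65 TPM, Hp at 15.2 and 5.59 TPM, Edn1 at 1.23 and 0.438 TPM, Gjb2 at 10.5 and 6.75 TPM and Car2 at 10.98 and 9.47 TPM. All 6 were lower in the double-mutant library. Cyp2f2, Krt7 and Anxa1 were lower there too, while Krt18, Esp8 and Esp15 were higher. The share of all genes lower in that library was not taken, so whether the direction is particular to these genes was not tested. There was 1 library of each genotype at different ages, so no test was made, and fewer cells of a type and less RNA per cell cannot be told apart in bulk tissue. In all Drop-seq cells summed by genotype, Esp18 stood at 38.0 CPM in control and 32.4 CPM in double-mutant glands, and Esp4 at 14.99 and 15.1 CPM. The other 4 genes were higher in double-mutant than control glands there, against the direction in bulk, with Hp at 28.2 against 16.0 CPM, Edn1 at 45.7 against 42.6 CPM, Car2 at 28.1 against 25.5 CPM and Gjb2 at 27.8 against 22.5 CPM.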

How the data were processed

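UMI counts per gene and barcode were deposited for the 26 Drop-seq and 4 CITE-seq glands, without normalization. The authors had aligned reads to mm10 with STAR, on an annotation to which the Cre and EYFP sequences had been added, and had kept barcodes above the knee. Antibody tag counts and bulk exon counts (featureCounts 1.6.0, per the file header) were deposited too. Fields of the authors' own cell table were not used here. Barcodes with 100 or more genes and under 15% mt- UMIs were kept (23346 of 26987). No doublet caller was run. The sort gated out joined cells by size, but not cells that met in 1 droplet. No member shared its barcode sequence with another library.

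The members, markers and gene lists were chosen with earlier results of these data known. The gland was the replicate. Shares were tested by permutation of glands (all arrangements, or 100000 draws for all 26 glands). UMIs summed per gland were tested with edgeR 4.0.16 (TMM, filterByExpr, quasi-likelihood, R 4.3.3, adjusted p under 0.05), with gland as block between populations and genotype, sex and stage as terms within members. Named genes were the 8 largest differences in each direction (6 within members) among those called with at least 100 CPM (50 within members) in the higher population, beside the markers and lists. Predicted and mt- genes were not named. One gene of the ion and water transport list is not reported here. On simulated counts, the Klk1 comparison with 3 glands (592 genes) recovered 96.7% of genes changed 8-fold and 75% of those changed 4-fold. With 7 glands (750 genes) it recovered 100% and 98.6%. The genotype fit within members (283 genes) recovered 96.9% and 80%. Of the genes called, 1.80%, 6.57% and 0% were unchanged ones, in that order. These counts were drawn with the same fixed spread for every gene and no gland effect, so recovery in the real data was not measured. Alternatives were DESeq2 1.42.0, relative log expression size factors, no filter, other gates, thinning to 600 UMIs, leaving out each gland and a binomial mixed model (lme4 1.1.37). Total counts bound the precision of all values, and exact binomial and Poisson intervals cover counting error only. Each replicate was 1 gland of a mouse, per the study's methods, and p-values measure the spread between glands.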

Additional observations from a re-analysis of the deposited data

Results flagged for a closer look

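Of 20 groups of 4 to 10 glands examined, 4 held a gland far from the rest, where chance alone gives about 1 in 20. Control P90 replicate 5 had the highest share of Esp4/Esp18 cells in its group, 4.79% of all cells and 4.48% with cells thinned to 600 UMIs. Control P40 replicate 2 had the highest thinned share of its group, 1.80%. In the members of control glands with at least 5 of them, control P90 replicate 1 had the lowest level of Krt18, 3539 CPM.

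Esp15, a related gene that was in no comparison, had 2 to 200 UMIs in 6 of 14 double-mutant glands and 0 in the other 8, while the highest count in a control gland was 1. Double-mutant P40 replicate 6 had 200 UMIs in 14 cells, 10 of them Smgc-high, double-mutant P40 replicate 4 had 18 UMIs, double-mutant P40 replicate 5 had 8 UMIs and double-mutant P90 replicate 7 had 4 UMIs. Of 237 Esp15 UMIs in all, 1 was in a member.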

How the results depend on the processing

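Shares were recomputed under all settings (175 values), and none passed (adjusted p 0.598 to 0.999, smallest unadjusted p 0.213). The difference between double-mutant and control at P40 turned to 0.00411 points with thinned cells and to 0.0230 log odds in the binomial mixed model. P90 against P40 in double-mutants turned to -0.0213 points without the limit on Krt14 and Krt5, -0.357 points at 0.1% and -0.0224 log odds in the mixed model. Male against female in double-mutants turned to -0.00308 points at 5 UMIs and 1%, -0.0196 without the Krt limit, -0.0267 as a share of cells with Epcam, Krt8 or Krt18, -0.0235 without the libraries whose sex genes went against the label and -0.0442 without double-mutant P90 replicate 4. Leaving out each gland gave -0.481 to -0.0453 points for genotype in all glands, -0.203 to 0.114 at P40, -0.909 to 0.0299 at P90, -0.0970 to 0.868 for stage in controls, -0.0619 to 0.110 in double-mutants, 0.0193 to 0.978 for sex in controls and -0.0631 to 0.103 in double-mutants.

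Genes called against Klk1 duct cells (32) were 75 by DESeq2, 51 with relative log expression size factors, 207 with at least 5 cells a gland, 183 likewise but without double-mutant P40 replicate 7, whose reporter was all but unread, 547 at 0.1% and 0 to 71 leaving out each gland. Against Ascl3/Foxi1 cells (104) they were 61 without a filter, 208 with at least 5 cells, 207 without that library, 52 with thinned cells, 403 at 0.1% and 43 to 100 leaving out each gland. Against Smgc-high cells (61) they were 13 with thinned cells, 12 in control glands, 210 at 0.1% and 12 to 72 leaving out each gland. Bpifa2 turned to -0.57 against Klk1 and -0.31 against Ascl3/Foxi1 cells at 0.1%. Fewer cells and glands entered the thinned fits and more entered those at 5 cells and 0.1%; for the others the cause was not tested.

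Within members, genotype calls (1) were 2 by DESeq2, 0 with the number of members as covariate, with thinned cells, in all 23 glands with a member and at 0.1%, and 0 to 2 leaving out each gland. Sex calls (5) were 8 by DESeq2, 13 without a filter, 0 with the covariate, with at least 3 members and in all glands with a member, 1 with at least 3 members without the library against its label, 2 at 0.1%, both higher in females, and 1 to 6 leaving out each gland. Stage calls (0) were 2 by DESeq2, 1 with relative log expression, 4 without a filter, 2 with thinned cells, 1 with at least 3 members, with or without that library, 1 at 0.1%, and 0 to 2 leaving out each gland. The 0.1% limit, 3 members, all glands and leaving out libraries by their reporter were chosen after seeing the data. No paired analysis was possible because replicate number or batch as a block leaves no residual degrees of freedom in the 7 glands. Shares were not paired, since no label says that a number marks a shared animal. Gates of 5 UMIs and 1%, and 20 members a gland, left too few glands for gene fits. Depth limited the gene comparisons: over all members 1 UMI equals 7.27 CPM, and 646 of 13814 genes passed the filter on low counts against Klk1 duct cells.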

Other observations

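Esp8, another gene of the family, was found in different cells from Esp4 and Esp18. It had 1955 UMIs in 1223 cells and 1 UMI in the members. The 163 cells with 3 or more Esp8 UMIs were deep (median 13400 UMIs) and held 298353 CPM of Spt1, 1.3 CPM of Esp18 and 11.9 CPM of Esp4. Esp8 stood at 38.2 CPM in cells with acinar markers and 3.3 CPM in Klk1 duct cells. The 13 cells that met the rule but for a Krt14 or Krt5 UMI came from 6 glands, all 13 with Esp18. Hp (5 UMIs, 343.7 CPM) and Car2 (3 UMIs, 206.2 CPM) were each found in only 7.69% of these cells. EYFP had a UMI in 61.5% of them.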
